A study of Xenopus tropicalis with 12 samples.

Results

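The change in gene expression between stage 54 and stage 61 was followed in the intestine of Xenopus tropicalis tadpoles that lack both thyroid hormone receptor (TR) genes, TRα and TRβ. These double knockout animals are called TRDKO. The 6 TRDKO libraries of the study, 3 at stage 54 and 3 at stage 61, were taken by their labels out of 12 libraries in all. The other 6 come from wild-type tadpoles at the same stages and serve here only as a comparison. Stage 54 is a premetamorphic stage and stage 61 is the climax of metamorphosis. The TRDKO animals were TRα(-/-)TRβ(-/-) offspring of TRα(-/-)TRβ(+/-) parents, the wild-type animals were TRα(+/+)TRβ(+/+), and none of the sequenced animals is described as treated with hormone. The study kept mutant lines with different out-of-frame deletions of TRβ in one TRα knockout background, and neither the labels nor the methods say which line was sequenced. The methods describe combining tissue from several animals of a genotype for RNA extraction in their account of RT-PCR, and the account of RNA-seq does not repeat it. RNA of the whole intestine was selected for poly-A and sequenced.

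TRs are nuclear receptors that sit on their target genes and, without thyroid hormone (T3), keep many of them repressed. When T3 rises during metamorphosis, the bound receptors activate these genes. In the wild-type intestine the larval epithelium then dies by apoptosis, adult epithelial stem cells form and proliferate, and connective tissue and muscle thicken. A TRDKO tadpole can neither hold T3 target genes down nor switch them on through TR, so the comparison of its stages asks which developmental changes in RNA take place without any TR.

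Genes carry only Ensembl IDs in the deposited counts, and 0 of the 19921 IDs were found in the RefSeq gene table used here. The TR genes, markers of cell types and pathways were therefore not examined, and neither the knockout nor the tissue was checked against its defining genes. Total counts in the TRDKO libraries ranged from 20963454 to 37936503. Of the IDs, 13954 were tested.

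Stage 54 replicate 3 stood apart from its group. Across the tested genes, log2 CPM (counts scaled to a common library size by TMM) of TRDKO stage 54 replicates 1 and 2 correlated at 0.994, and those of the 3 stage 61 libraries at 0.995 to 0.996. Replicate 3 correlated with replicates 1 and 2 at only 0.950 and 0.951. With TRDKO stage 61 it correlated at 0.928 to 0.929, where replicates 1 and 2 reached 0.908 to 0.910. With wild-type stage 61 it reached 0.854 to 0.856, and replicates 1 and 2 reached 0.813 to 0.816. The TRDKO stage 61 libraries themselves stood at 0.858 to 0.860 with wild-type stage 61. With wild-type stage 54 the values were 0.922 to 0.923 for replicate 3 and 0.919 to 0.922 for replicates 1 and 2. Genes are not independent replicates, so these values are a description. In replicate 3, 2330 genes (16.7%) lay more than 2-fold from the mean of replicates 1 and 2, 975 above and 1355 below, while 308 genes (2.21%) differed that much between replicates 1 and 2. The median SD of log2 CPM per gene was 0.27 over the 3 libraries of stage 54, 0.06 over replicates 1 and 2, and 0.07 over the 3 libraries of stage 61.

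**Figure D1:**
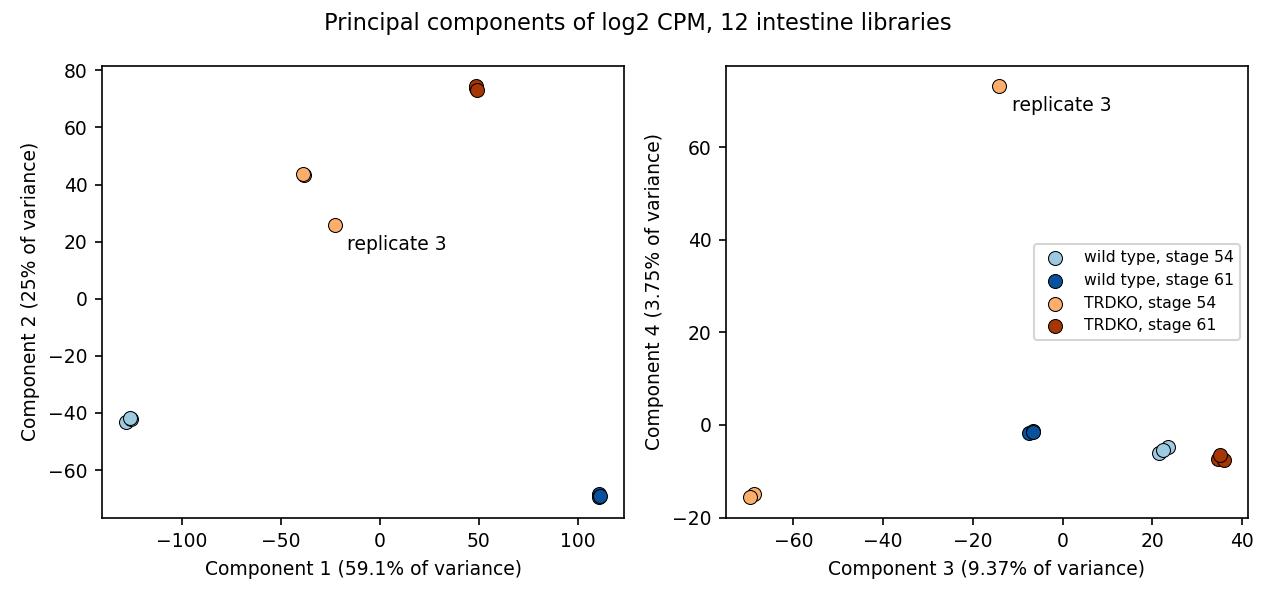
Principal components 1 against 2 (left) and 3 against 4 (right) of log2 CPM for the 12 libraries, one point per library, coloured by genotype and stage. Replicate 3 of TRDKO stage 54 lies away from the other 2 libraries of its group on every component shown, and it stands alone at 73.2 on component 4, which carries 3.75% of the variance.

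The place of replicate 3 between the stages was measured on genes it had no part in choosing. The fit without it called 3957 genes between the TRDKO stages. For each of them the place was set to 0 at the mean of stage 54 replicates 1 and 2 and to 1 at the mean of stage 61. The median place of replicate 3 was 0.353 (quartiles 0.0449 and 0.690), 0.300 for the 2059 rising genes and 0.415 for the 1898 falling genes. In 1519 of these genes (38.4%) replicate 3 was nearer to stage 61 than to replicates 1 and 2. With the same procedure, 9 libraries of the other 3 groups had median places between -0.000900 and 0.00739, and at most 1.65% of genes were nearer to the other stage. These places are a description with no test. With voom's sample quality weights, replicate 3 had a weight of 0.0176 and the 11 other libraries 1.02 to 1.77.

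**Figure D2:**
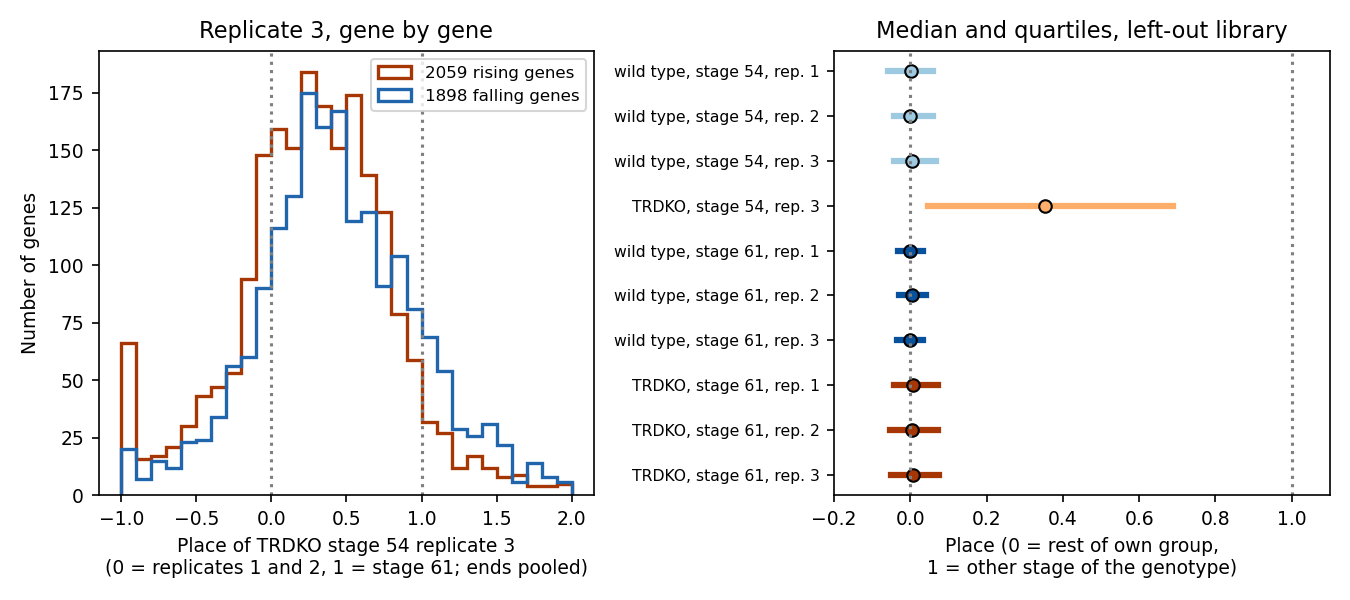
Left: place of TRDKO stage 54 replicate 3 for each gene called between the TRDKO stages without it (0, replicates 1 and 2; 1, stage 61), with the number of genes on the y axis and values beyond the ends pooled into the last bars. Right: median (points) and quartiles (bars) of the same measure for replicate 3 and the 9 libraries of the other groups, each left out in turn. Replicate 3 has a median of 0.353 and the 9 others lie close to 0. TRDKO stage 54 replicates 1 and 2 were not left out and are not shown.

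The place of replicate 3 was also taken separately for genes called and not called between TRDKO replicates 1 and 2 and wild type at stage 54. A call needed more than 2-fold at an adjusted p under 0.05 in edgeR, so genes not called may still differ by less. Among 2040 genes called by stage and not called against wild type at stage 54, its median place was 0.334. Another 2779 genes were called against wild type at stage 54 but not by stage. In these its median place on the way to wild-type stage 54 was 0.0754 (quartiles -0.186 and 0.384). In 767 genes where stage 61 and wild-type stage 54 lay in the same direction, it was 0.727 toward stage 61. In 1150 genes where they lay in opposite directions, it was 0.212 toward stage 61. Of the 7218 genes called in neither comparison, replicate 3 lay more than 2-fold away in 449 (6.22%). The place of replicate 3 on the way to wild-type stage 61 was not taken. Whether its shift is particular to the TRDKO stages is therefore not shown. What sets replicate 3 apart was not tested.

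Without TR, 1739 genes were upregulated and 1672 were downregulated at stage 61 compared to stage 54 (edgeR quasi-likelihood F test, more than 2-fold at an adjusted p under 0.05 by Benjamini and Hochberg). These were 12.5% and 12% of the genes tested. Without stage 54 replicate 3 the test called 2059 (14.8%) and 1898 (13.6%). Both fits shared 1565 upregulated and 1543 downregulated genes, and no gene was called in opposite directions. In whole intestine, fewer cells of a type and less RNA per cell cannot be told apart, which holds for every change given here. The methods call the 3 RNA samples of a group biological replicates and the labels name no animals, so the p-values measure the spread between these samples, each of which may be a pool. The common coefficient of variation in edgeR was 0.152 with all libraries and 0.0215 without replicate 3. Replicate 3 thus set much of the spread used in the main fit. How far the small spread of the other libraries covers variation between animals is not known. The calls without replicate 3 rest on that spread.

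Leaving out replicate 3 brought in 494 upregulated genes in which its median place was 0.801 and 355 downregulated genes in which it was 0.819, close to the stage 61 level. With replicate 3 included, 449 and 303 of them fell short of the 2-fold change. The 174 upregulated and 129 downregulated genes called only with replicate 3 had it on the far side of replicates 1 and 2, with median places of -0.780 and -0.968. In the genes of both fits the median places were 0.163 and 0.340, and the median log2 fold changes went from 1.62 with all libraries to 1.81 without replicate 3 for rises and from -1.69 to -1.84 for falls. These places follow in part from the choice of the genes.

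Most of the changes were small. Of the upregulated genes, 1233 (70.9%) rose by 2 to 4-fold, 356 by 4 to 10-fold, 136 by 10 to 100-fold and 14 by more than 100-fold. The downregulated genes numbered 1079 (64.5%), 430, 146 and 17 in the same classes. Leaving out replicate 3 added most, in proportion, to the large changes, with 189 rises and 203 falls of 10 to 100-fold and 27 rises and 22 falls of more than 100-fold.

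**Figure D3:**
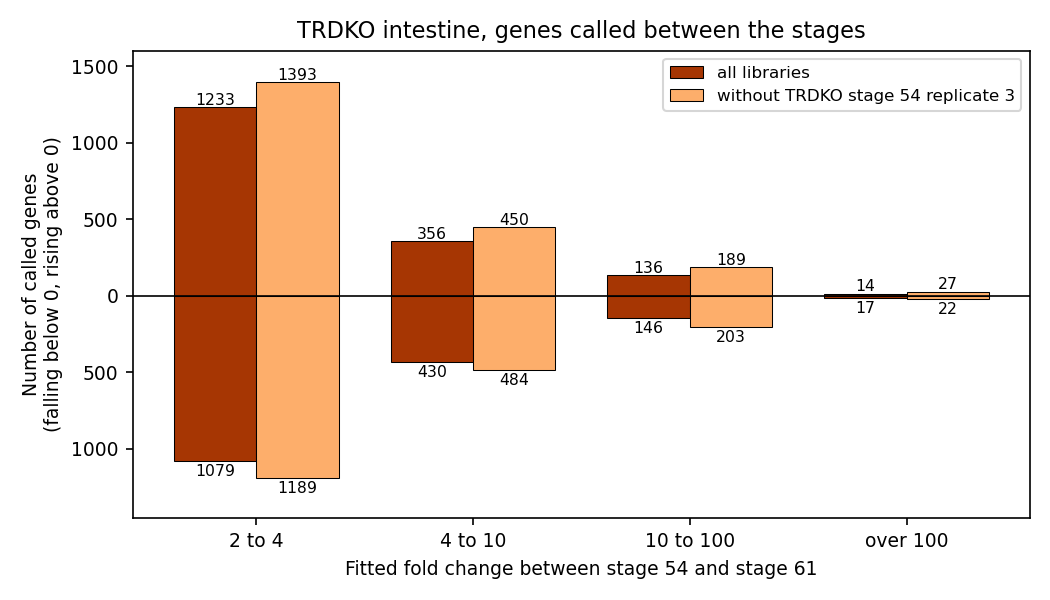
Genes called in TRDKO intestine between the stages, counted by fitted fold change (y axis, number of genes), rising genes above 0 and falling genes below, with all 6 TRDKO libraries (dark) and without stage 54 replicate 3 (light). The class of 2 to 4-fold holds 1233 rising and 1079 falling genes with all libraries.

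In most called genes the libraries of the stages did not overlap. In 1721 of the upregulated genes (99.0%) every stage 61 library lay above every stage 54 library, and in 1451 of the downregulated genes (86.8%) every stage 61 library lay below. Over all genes tested, called or not, 4536 (32.5%) had all stage 61 libraries above and 4241 (30.4%) had all below. The calls were made on these same libraries, so the separation of called genes follows in large part from their choice. Replicate 3 was examined separately. Among genes called without it whose other libraries did not overlap, its value reached into or past the stage 61 range in 202 of 2051 rising genes (9.85%) and in 374 of 1896 falling genes (19.7%).

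The balance of rises and falls varied with the level of expression. Of the 1832 genes with a mean under 1 CPM over the TRDKO stages, 596 (32.5%) were upregulated and 191 (10.4%) were downregulated. Between 1 and 10 CPM there were 768 rises and 638 falls among 4751 genes. Between 10 and 100 CPM falls outnumbered rises, with 613 (9.86%) and 303 (4.87%) of 6220 genes. Between 100 and 1000 CPM, 205 of 989 genes (20.7%) were downregulated and 43 (4.35%) were upregulated. Of the 162 genes at 1000 CPM or more, 29 rose and 25 fell. Without replicate 3 the order of rises and falls was the same in each of these classes, and also without a filter on low counts. The share under 1 CPM depended on that filter, which can admit a gene through the group where it is high. Without it, 747 of 4864 such genes (15.4%) rose and 299 (6.15%) fell, and 15.5% rose between 1 and 10 CPM.

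The part of the reads held by the regulated genes differed between the stages. By number, the upregulated and downregulated genes were 12.5% and 12% of the genes tested. The upregulated genes together held 6.93%, 6.90% and 7.20% of all counts in stage 54 replicates 1, 2 and 3 and 17.2%, 17.1% and 17.1% in the stage 61 libraries. The downregulated genes held 24.3%, 24.4% and 21.9% at stage 54 and 7.04%, 7.04% and 7.14% at stage 61. These shares describe genes chosen for their change. The 100 most abundant genes of each library, chosen without regard to stage, held 40.9%, 40.9% and 43.4% of the counts at stage 54 and 50.4%, 50.1% and 49.9% at stage 61. Every stage 61 library was above every stage 54 library (two-sided exact permutation test, p = 0.1, the smallest that 3 libraries against 3 allow).

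Much of this most abundant set was common to both stages. By mean CPM, 72 genes were among the 100 most abundant at both. Of the 100 at stage 54, 23 were downregulated and 13 were upregulated at stage 61. Of the 100 at stage 61, 25 were upregulated and 3 were downregulated. Over all tested genes 12.5% were upregulated and 12% downregulated, so the 13 rises among the most abundant genes of stage 54 are near the background. Membership at one stage favours genes that are high there. Without replicate 3 these numbers were 22, 12, 23 and 2.

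Few genes with at most 3 counts in every library of a stage had a high level in the other stage. In every stage 54 library 274 of the tested genes had at most 3 counts, and 140 of them were upregulated, against 12.5% of all tested genes. Their median level at stage 61 was 0.347 CPM, 15 had at least 1 CPM, and the highest reached 11.1 CPM. This ceiling depends on the limit. ENSXETG00000025667 had 5, 4 and 7 counts at stage 54, just over the limit, and rose to 171 CPM. ENSXETG00000031036 had 5, 4 and 5 counts and rose to 136 CPM. Of these 140 genes, 45 passed the filter on low counts by the TRDKO libraries alone, and the others entered the test through the wild-type libraries. Of the 274 genes, 226 (82.5%) were upregulated in wild type, against 30.4% of all tested genes. As the 274 had little room to fall, their share of rises in TRDKO follows in part from how they were chosen. Genes this low at stage 54 can pass by the TRDKO libraries only through stage 61, where they are high. All 45 that did so were called, so the filter favoured that outcome. In the other direction, 165 genes had at most 3 counts in every stage 61 library. Of these, 57 were downregulated, against 12% of all tested genes, from a median of 0.457 CPM at stage 54. In wild type 43 of the 165 (26.1%) were downregulated, against 21.2% of all tested genes. Among the 57, 17 had at least 1 CPM at stage 54, and 17 passed the filter by the TRDKO libraries alone. The filter favoured the call here too, as all 17 low genes that passed this way were called. When replicate 3 was set aside in both the test and the limit of 3 counts, 270 upregulated and 63 downregulated genes met it. For the upregulated genes the limit is then easier to meet, with fewer libraries to pass it.

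The largest changes among well expressed genes are given by ID. These are the 2 largest rises and 2 largest falls among genes called both with and without replicate 3, with at least 10 CPM in the higher stage and no overlap between the stages. There were 409 such rises and 848 such falls to choose from. Choosing by the TRDKO change favours genes with a larger stage effect in TRDKO than in wild type. The IDs carry no name here, so the products of these genes are not stated.

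ENSXETG00000025667 had 5, 4 and 7 counts in the 3 TRDKO libraries of stage 54 and 6254, 4272 and 4794 at stage 61. The mean over 3 libraries was 0.189 ± 0.00530 CPM (SD) at stage 54 and 171 ± 3.55 CPM (SD) at stage 61. The fitted rise was 9.79 ± 0.09 (SE) on the log2 scale, with an adjusted p of 2.31e-13 in edgeR. Replicate 3 was level with the other stage 54 libraries for this gene. In wild-type tadpoles the gene rose from 3.42 ± 0.148 to 138 ± 7.96 CPM (SD, n = 3 each). The stage 54 means of the genotypes lay further apart, as a ratio, than the stage 61 means. The stage effect was larger in TRDKO by 4.46 on the log2 scale (adjusted p = 4.22e-10, interaction test of edgeR), and by 3.26 with library size alone.

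ENSXETG00000031036 had 5, 4 and 5 counts at stage 54 and 4873, 3493 and 3823 at stage 61. It went from 0.170 ± 0.0286 to 136 ± 1.29 CPM (SD, n = 3 each), and the fitted rise was 9.65 ± 0.10 (SE) on the log2 scale, with an adjusted p of 3.20e-13 in edgeR. Its wild-type level was 0.0932 ± 0.0222 CPM at stage 54, on 1 to 2 counts per library, and 5.44 ± 0.282 CPM at stage 61 (SD, n = 3 each). Here the genotypes lay closer together, as a ratio, at stage 54 than at stage 61. The stage effect was larger in TRDKO by 3.87 on the log2 scale (adjusted p = 0.000208, edgeR interaction test), and by 2.70 with library size alone.

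ENSXETG00000032473 had 241, 162 and 920 counts at stage 54 and 0 in each of the 3 stage 61 libraries. Its CPM at stage 54 was 8.80, 7.72 and 25.3, so replicate 3 was the highest library and the furthest from stage 61. A limit of 3 counts in a stage 61 library equals 0.103 CPM on average, so the stage 54 mean of 13.9 ± 9.86 CPM (SD, n = 3) was at least 136-fold higher. Without replicate 3 the bound was 80.5-fold. The adjusted p was 1.89e-05 in edgeR. Wild-type tadpoles went from 39.8 ± 1.89 to 0.150 ± 0.0636 CPM (SD, n = 3 each). The interaction did not pass the threshold with all libraries (adjusted p = 0.293, edgeR). Without replicate 3 it was called, with a more negative log2 fold change in TRDKO, which is a larger fitted fall. As the stage 61 libraries hold 0 counts, the TRDKO fall is known only as a lower bound, and the sizes of the falls in the genotypes cannot be ranked.

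ENSXETG00000013747 had 1193, 893 and 11 counts at stage 54 and 1, 0 and 0 at stage 61. At stage 54 the CPM was 43.6 and 42.6 in replicates 1 and 2 and 0.303 in replicate 3, so replicate 3 alone lay near the stage 61 libraries. Over the libraries of a stage, 2097 counts at stage 54 stood against 1 at stage 61, a ratio of 2214 with a 95% counting interval of 397 to 87503. That interval covers counting error only, and not the spread between replicate 3 and replicates 1 and 2. The test gave an adjusted p of 0.000696 (edgeR), and with limma voom without sample weights the call was lost (adjusted p = 0.343). Wild-type libraries held 2.36 ± 0.146 CPM (SD, n = 3) of this gene at stage 54 and 0, 1 and 0 counts at stage 61, and the interaction did not pass the threshold (adjusted p = 0.809, edgeR).

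**Figure D4:**
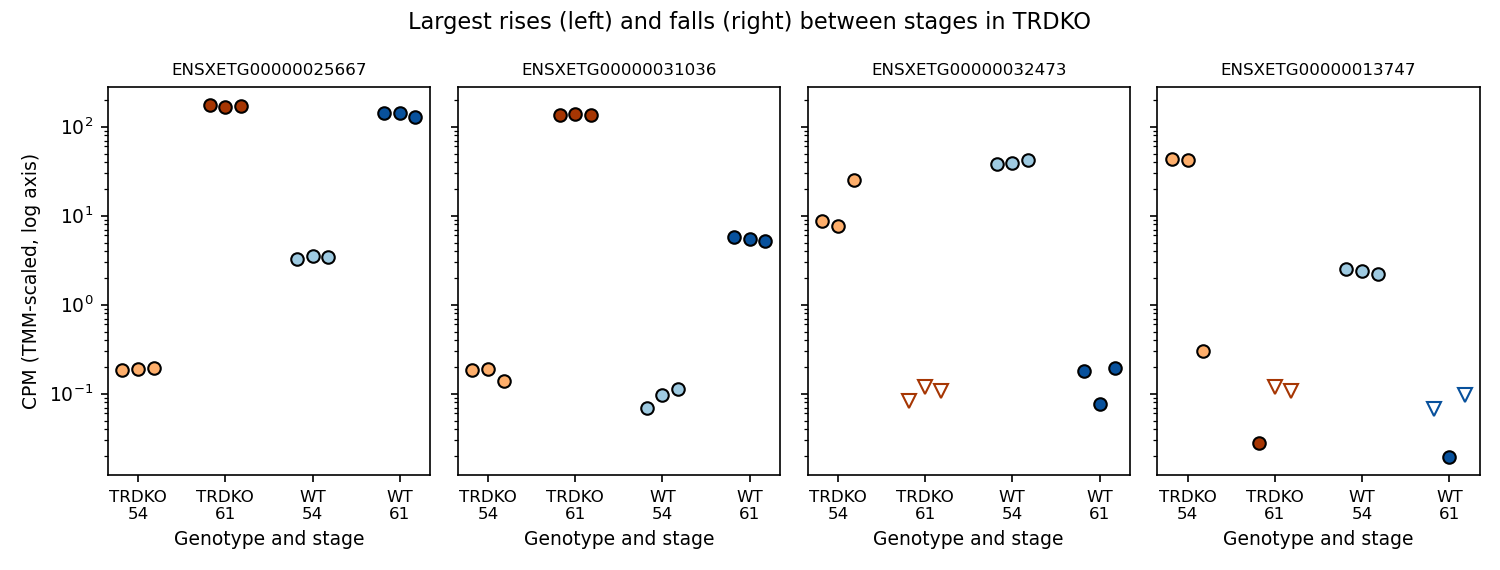
CPM on a log axis in each of the 12 libraries for the 2 largest rises and the 2 largest falls between the TRDKO stages, with filled points for single libraries and open triangles at the limit of 3 counts for libraries with 0 counts. In ENSXETG00000013747 replicate 3 of TRDKO stage 54, the lowest light orange point, lies at 0.303 CPM against 43.6 and 42.6 CPM in the other 2.

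The stage change in TRDKO intestine was then set beside that in wild type. The contrasts share no library, though they share the scaling and the estimate of the spread. Across the 13954 genes the log2 fold changes of the genotypes correlated at 0.514 (Spearman 0.518), as a description. In wild type, 4247 genes (30.4%) were upregulated and 2960 (21.2%) were downregulated. Over all 13954 genes the log2 fold change had a median of -0.00 in TRDKO and 0.13 in wild type. Under scaling by library size alone the medians were 0.00 and 1.33, so the TRDKO contrast hardly moved with the scaling and the wild-type contrast did.

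**Figure D5:**
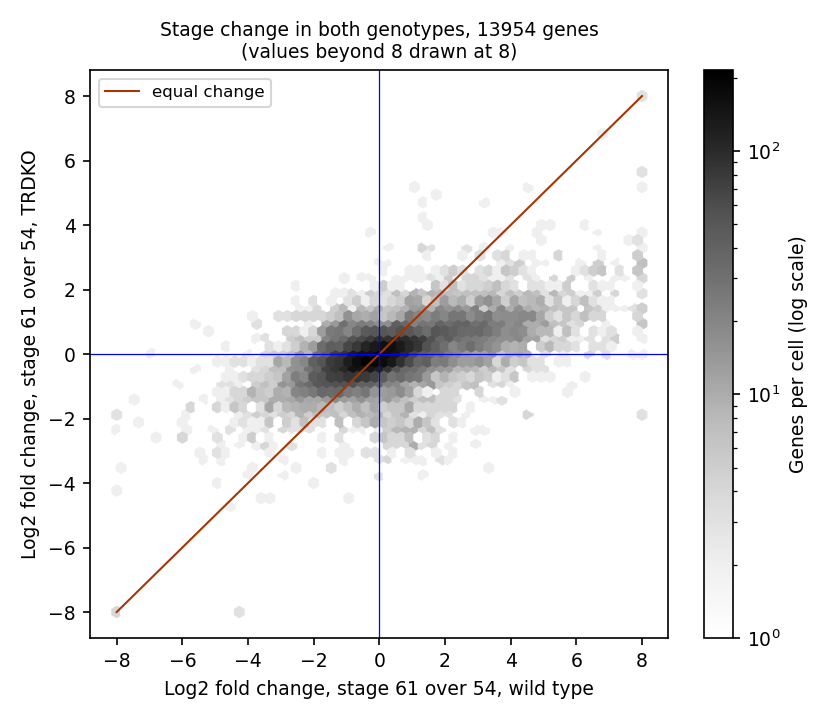
Log2 fold change between stage 54 and stage 61 in wild type (x axis) and in TRDKO (y axis) for 13954 genes, shaded by the number of genes on a log scale, with a line of equal change. The cloud is flatter than the line, and the Pearson correlation is 0.514.

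Genes that changed in wild type had median TRDKO changes in the same direction, and smaller the smaller the wild-type change. The 1478 genes that rose 10-fold or more in wild type had a median log2 fold change of 1.05 in TRDKO (quartiles 0.44 and 1.77). Of them 702 (47.5%) were upregulated in TRDKO, against 12.5% of all tested genes, and 42 were downregulated. The 2769 genes that rose 2 to 10-fold in wild type had a median of 0.46, and 582 (21.0%) were upregulated in TRDKO. The 436 genes that fell 10-fold or more in wild type had a median of -1.57 in TRDKO, and 301 (69.0%) were downregulated, against 12% of all tested genes. For the 2524 genes that fell 2 to 10-fold in wild type the median was -0.50, and 566 (22.4%) were downregulated. Among the 6747 genes not called in wild type, 368 (5.45%) rose and 599 (8.88%) fell in TRDKO. With library size alone the medians kept their signs, at 0.87, 0.10, -1.95 and -0.98 in the same order, and only 8.40% of the genes that rose 2 to 10-fold in wild type were upregulated in TRDKO. In the fit without replicate 3, where the wild-type classes were drawn anew, the 4 medians were 1.21, 0.54, -1.57 and -0.50.

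The wild-type values of the genes called in TRDKO were then taken by the size of the TRDKO change, against 30.4% upregulated and 21.2% downregulated in wild type over all tested genes. Of the 150 genes that rose 10-fold or more in TRDKO, 110 (73.3%) were upregulated in wild type and 3 were downregulated, with a median wild-type log2 fold change of 4.0. Of the 1589 that rose 2 to 10-fold, 1174 (73.9%) were upregulated in wild type. Of the 163 genes that fell 10-fold or more in TRDKO, 97 (59.5%) were downregulated in wild type and 13 (7.98%) were upregulated, with a median of -2.90. This class rested on the choice of libraries. Without replicate 3 it held 225 genes with a median of -1.41 in wild type, and 52 of them (23.1%) were upregulated there. Of the 1509 genes that fell 2 to 10-fold in TRDKO, 770 (51.0%) fell and 193 (12.8%) rose in wild type. A difference between these shares was not tested. The wild-type values of falling genes depended on the scaling. With library size alone, the TRDKO falls of 2 to 10-fold had a wild-type median of 0.11, with 28.6% downregulated and 32.2% upregulated in wild type, and the falls of 10-fold or more had a median of -1.69, with 51.2% and 16.5%. The TRDKO rises kept positive wild-type medians, 5.10 and 3.85.

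Where both genotypes moved together, the TRDKO change was usually the smaller. Among the 1284 genes upregulated in both, the median log2 fold change was 1.58 in TRDKO and 3.56 in wild type, and the median ratio of TRDKO to wild type was 0.487. The change was larger in TRDKO in 168 (13.1%), and the interaction test called it larger in 32 and smaller in 784. Among the 867 downregulated in both, the medians were -1.52 and -2.55 and the median ratio was 0.662. The interaction test called the fall larger in TRDKO in 46 and smaller in 502. Without replicate 3 the median ratios were 0.531 for rises and 0.703 for falls. With library size alone 1504 genes rose and 511 fell in both genotypes, with median ratios of 0.393 and 0.843, so the distance between the falls was smaller under that scaling.

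Some genes moved in opposite directions. In TRDKO 87 genes rose that fell in wild type, with median log2 fold changes of 1.36 and -1.89. They were 5.003% of the TRDKO rises, against 21.2% of all tested genes downregulated in wild type. Another 206 fell in TRDKO and rose in wild type, with medians of -1.97 and 1.92. They were 12.3% of the TRDKO falls, against 30.4% of all tested genes upregulated in wild type. Opposite movement was thus rarer than the background, a difference that was not tested. The genes of both groups differ in stage effect by the way they were chosen. Without replicate 3 in the fit these groups held 98 and 308 genes. With library size alone they held 27 and 509, so the number in each depended on the scaling.

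The rest of the TRDKO response had no counterpart among the wild-type calls. Of the 368 genes upregulated in TRDKO and not called in wild type, 71 rose and 59 fell in wild type by a smaller change that still had an adjusted p under 0.05, and 230 (62.5%) had a higher stage effect in TRDKO by the interaction test. Of the 599 downregulated in TRDKO and not called in wild type, 126 fell and 85 rose in wild type at that p. By the interaction test 460 (76.8%) had a lower stage effect in TRDKO, here a more negative log2 fold change. Their median log2 fold change was -1.68 in TRDKO and 0.04 in wild type. The choice of genes called in TRDKO alone sets part of these distances. With library size alone the groups held 218 upregulated and 639 downregulated genes. Lower and higher are taken by sign, so a lower effect is a smaller rise, a larger fall, or a fall in place of a rise. Over all genes the interaction test called 5236 (37.5%) with a lower and 4191 (30.0%) with a higher stage effect in TRDKO. With library size alone these were 10331 and 1161.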

How the data were processed

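The authors aligned the reads with STAR 2.6.1c, using an Ensembl genome of Xenopus tropicalis, and counted them per gene with featureCounts 1.6.3, as the submitters' processing notes and the paper give it. The deposited values are raw counts of 19921 Ensembl IDs in 12 libraries. A stranded kit was used. The strand setting of the counting and its treatment of reads matching several genes are not given in the sources used here, so counts of overlapping or near-identical genes are uncertain.

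The tests used edgeR 4.0.16 (R 4.3.3). The 13954 genes that passed filterByExpr, given the 4 groups, entered a quasi-likelihood model of all 12 libraries with TMM scaling, and p-values were adjusted over all of these genes. Genes were called at an adjusted p under 0.05 and over 2-fold, and the interaction on its adjusted p without a fold limit. The procedure was run on simulated data in which unchanged genes had the same mean CPM in all 4 groups. No simulated library was made outlying, so that run does not bear on the choice of scaling or on replicate 3. Log2 CPM used a prior count of 2. A count of 0 allows up to 3 counts, 0.0825 to 0.143 CPM in the TRDKO libraries. Counting intervals and limits cover counting error only.

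Groups and replicate numbers came from the sample titles. Alternatives were DESeq2 1.42.0, limma 3.58.1 (voom), other scalings, filters and thresholds, a replicate block, and each TRDKO library left out. The libraries, lists and tests were chosen with earlier results of these data known. The split of genes by their difference from wild type at stage 54, voom without weights, the block without replicate 3, and the effect of filter and scaling on the classes were added after the data were seen. Genes to be named were thra, thrb, those of the study's RT-PCR, list members and the 10 largest rises and falls with a symbol. As the IDs were paired with no symbol, the first 2 rises and falls were given by ID, and gene lists and cell type markers, fixed by symbol, were not run. Exact permutation tests used scipy 1.17.1, figures matplotlib 3.10.9.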

Additional observations from a re-analysis of the deposited data

Results flagged for a closer look

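With all libraries, the interaction test of edgeR called 5236 genes with a lower and 4191 with a higher stage effect in TRDKO, by signed log2 fold change. Among them were 2 of the 4 genes given by ID. ENSXETG00000025667 had a stage effect larger in TRDKO by 4.46 on the log2 scale, higher in 3 of 3 libraries at stage 61 in both genotypes. ENSXETG00000031036 had one larger by 3.87, again with 3 of 3 libraries higher in both genotypes. Both genes were chosen as the largest TRDKO rises without overlap between the stages. That choice favours a larger effect in TRDKO and sets the 3 of 3 there in advance. Groups of 3 libraries are too small for a test of single outlying samples, so replicate 3 of TRDKO stage 54 is described by its values only.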

How the results depend on the processing

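The TRDKO contrast depended on the threshold more than on the tool or the scaling. With no fold threshold 4192 genes rose and 4490 fell, and with glmTreat against a 2-fold change 783 and 907. Leaving out single TRDKO libraries gave 1607 to 2059 rises and 1580 to 1898 falls, the most of both without stage 54 replicate 3, and lower and higher stage effects in 4954 to 6081 and 3916 to 5073 genes. DESeq2, voom, RLE, library size alone, other filters and a fit of the 6 TRDKO libraries kept the TRDKO counts within 1.5 times. Library size alone gave 8108 rises and 956 falls in wild type, and 10331 lower and 1161 higher effects. Without a fold threshold 5220 genes fell in wild type. A difference of over 2-fold left 2374 higher effects. Among genes with at least 10 CPM in the higher stage, replicate 3 was nearer to stage 61 in 33.8%. The cause was not tested. For the same replicate numbers, deviations from the group mean correlated between the TRDKO stages at 0.0285, 0.00234 and 0.0312. Replicate 3 dominates these deviations at stage 54, so the check cannot decide whether libraries of the same number were paired. A replicate block gave 1739 rises and 1595 falls, and 2051 and 1888 without replicate 3. Alternatives on gene lists were not run, as no symbols were paired with the IDs. At these depths a gene under 0.143 CPM could go undetected in a library.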
